A study of Mus musculus with 2 samples.

Results

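The liver X receptors (LXR), the retinoid X receptors (RXR), the retinoic acid receptors (RAR) and the peroxisome proliferator-activated receptors (PPAR) are ligand-activated transcription factors of the nuclear receptor family. The group examined comprised 10 mouse genes: Nr1h3 and Nr1h2 for LXRα and LXRβ, Rxra and Rxrb, Rara, Rarb and Rarg, and Pparg, Ppard and Ppara. Probe sets were taken wherever the platform annotation gave one of these symbols, alone or with another. This gave 16 probe sets for 9 of the 10 genes, out of 45037 gene probe sets on the array. Of these, 15 carried 1 symbol, and 1 probe set of Ppard also carried the symbol 1810013A23Rik and is reported apart. Nr1h2 was not analysed here.

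Both cultures were RAW264.7 cells, a mouse macrophage-like line, that stably carried murine LXRα introduced by chemical transfection, so the DMSO culture was also LXRα-expressing. One culture had received the LXR agonist GW3965 at 1 µM together with the RXR agonist LG268 at 100 nM for 24 h, and the other the solvent DMSO for 24 h. Total RNA of each was hybridised to 1 Affymetrix mouse 430 2.0 array, so a fold below compares 2 arrays and no test across cultures could be made. The promoter driving the introduced LXRα, and whether the line was 1 clone, are not given in the sources used here, and neither ligand was given alone.

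LXRs sense oxidised sterols, RARs bind retinoic acid and PPARs bind fatty acids and their derivatives. Each pairs with an RXR on DNA, where the pair recognises repeated half-sites of the kind AGGTCA. In macrophages LXR–RXR pairs control cholesterol export and lipid synthesis genes, and LXR–RXR and PPAR–RXR pairs can also be switched on by an RXR ligand. Rarb is known as a gene that is itself induced by retinoic acid, through an element in its promoter made of half-sites with a 5-base spacer.

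Promoter sequences are shown for the 4 genes with a probe set at least 1.5-fold apart on the 2 arrays. They are RefSeq sequences of build GRCm38.p6, from 250 bases before an annotated transcript start to 50 bases after it, written along the gene. Capitals mark every match to the letters searched on both strands, which were the half-site AGGTCA and direct repeats with spacers of 1, 4 and 5 bases (GNTCANNGNTCA, GNTCANNNNNGNTCA and GNTCANNNNNNGNTCA). A stricter form of the last, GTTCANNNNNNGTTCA, was also searched and lies within it. All 10 genes had at least 1 window, 19 in all. Which of these starts RAW264.7 cells use was not measured.
Nr1h3 (chr2:91195067-91195366, minus strand): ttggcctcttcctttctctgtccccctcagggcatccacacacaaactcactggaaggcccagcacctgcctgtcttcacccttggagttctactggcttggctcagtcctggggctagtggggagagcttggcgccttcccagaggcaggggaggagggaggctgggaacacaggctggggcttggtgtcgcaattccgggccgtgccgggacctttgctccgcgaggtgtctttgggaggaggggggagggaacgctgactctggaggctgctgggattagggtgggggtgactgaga
Rara (chr11:98964622-98964921, plus strand): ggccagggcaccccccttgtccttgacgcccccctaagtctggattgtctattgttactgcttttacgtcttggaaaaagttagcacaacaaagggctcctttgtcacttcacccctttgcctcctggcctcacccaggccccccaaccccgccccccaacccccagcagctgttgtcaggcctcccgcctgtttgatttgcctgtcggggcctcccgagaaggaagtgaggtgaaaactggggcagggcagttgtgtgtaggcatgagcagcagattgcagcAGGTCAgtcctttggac
Rarg (chr15:102257473-102257772, minus strand): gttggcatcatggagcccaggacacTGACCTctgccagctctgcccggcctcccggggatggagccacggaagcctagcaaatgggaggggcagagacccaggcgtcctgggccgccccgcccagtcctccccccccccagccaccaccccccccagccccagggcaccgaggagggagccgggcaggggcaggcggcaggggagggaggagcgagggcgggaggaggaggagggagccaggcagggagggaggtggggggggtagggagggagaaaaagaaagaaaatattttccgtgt
Rarb (chr14:16575427-16575726, minus strand): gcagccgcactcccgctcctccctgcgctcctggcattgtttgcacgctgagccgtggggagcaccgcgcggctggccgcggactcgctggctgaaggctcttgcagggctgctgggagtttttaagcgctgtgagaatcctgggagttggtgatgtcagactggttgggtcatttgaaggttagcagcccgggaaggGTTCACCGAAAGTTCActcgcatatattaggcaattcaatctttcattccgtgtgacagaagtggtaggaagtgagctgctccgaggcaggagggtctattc

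The Rarb window was the only one of the 19 to hold a direct repeat. Its match lay 52 to 37 bases before the start and met both forms with the 5-base spacer. The looser form was found in 0.861% of 32851 RefSeq promoter windows of the same length and the stricter one in 0.0761%. An element with this spacer was already known in the Rarb promoter, and the stricter form spells the half-sites of this match. The match could therefore be foreseen, and the shares are not a test of it. The spacers of 1 and 4 bases, found in 1.26% and 0.858% of all windows, had no match in the 19. At least 1 half-site lay in 5 of the 19 windows, against 16.3% of all windows. In the printed windows it stood 33 to 38 bases after the start in Rara and, on the opposite strand, 225 to 220 bases before it in Rarg. Rara had 4 windows and Rarg 2, and the one printed for each was the only one with a match. Neither of the 2 overlapping Nr1h3 windows held any of the letters searched, and the one whose start lies further upstream is printed. A match describes the letters only and is not evidence of a binding site.

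Signals are MAS5 signals, the Affymetrix summary of a probe set's perfect-match and mismatch probes, in arbitrary units. A probe set counted as measured if its brighter signal exceeded a floor of 276.4, the median signal of the gene probe sets on the 2 arrays, and lower signals were raised to the floor before a ratio was taken. By this measure 10 of the 16 receptor probe sets were measured, 9 of them on both arrays, and 6 were at or below the floor on both. Signals of different probe sets are not comparable as levels, because probes differ in affinity. The 2 arrays had the same trimmed mean of 2500, medians of 272.1 with the ligands and 282.5 with DMSO, and 49.7% and 50.3% of gene probe sets above the floor.

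Macrophage marker genes had high signals on both arrays. All 10 macrophage markers examined were measured, at signals of 5567 to 164189 with the ligands and 6424 to 150697 with DMSO, summing to 661414 and 597144. Of these, Mpeg1 and Fcgr1 were 2.03-fold and 1.53-fold higher with the ligands by the probe set of highest mean log2 signal. The other measured Fcgr1 probe set had a log2 ratio of 0.20, and a further one of Cd53 had 0.65. The part of these marker differences in the receptor results was not tested. Of markers of other lineages, 1 of 7 fibroblast genes (Pdgfrb), 1 of 6 lymphocyte genes (Cd8a), 0 of 3 adipocyte genes and 1 of 4 hepatocyte genes (Apoa1) were above the floor on either array by the probe set of highest mean log2 signal of each gene. A further probe set of the fibroblast gene Dcn was also above the floor on at least 1 array, with a log2 ratio of -0.25. Their summed signals with the ligands and with DMSO were 894 and 1115 for fibroblast, 538 and 953 for lymphocyte, 183 and 330.5 for adipocyte and 603 and 140.04 for hepatocyte genes. In a bulk culture a change in the share of cells expressing a gene and a change in its RNA per cell cannot be told apart.

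Across the 4 receptor families, Nr1h3, Rara and Rarg had higher signals with the ligands and Rarb and Ppard had lower ones. Rxrb was nearly equal on the 2 arrays, and the 3 probe sets of Rxra had no common direction. Of the 10 measured probe sets, 4 were past 1.5-fold on the higher side with the ligands, against 7.32% of all 24368 measured probe sets. They belonged to 3 genes, since Rarg contributed 2, so they are not 4 independent observations. In the lower direction 1 of the 10, that of Rarb, was at least 1.5-fold apart, where 6.55% of all measured probe sets were. None of the 10 ratios reached 2-fold in either direction, against 1.75% higher and 1.17% lower over all measured probe sets, but that of 1 Rxra probe set is only a bound. The median log2 ratio of the 10 was 0.21, against -0.02 over all measured probe sets. Quantile normalization gave 4 higher and 2 lower past 1.5-fold in place of 4 and 1. A floor at the 75th percentile gave 1 and 0, and one at the 25th percentile gave 5 and 3, with 1 higher and 1 lower past 2-fold.

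**Figure D1:**
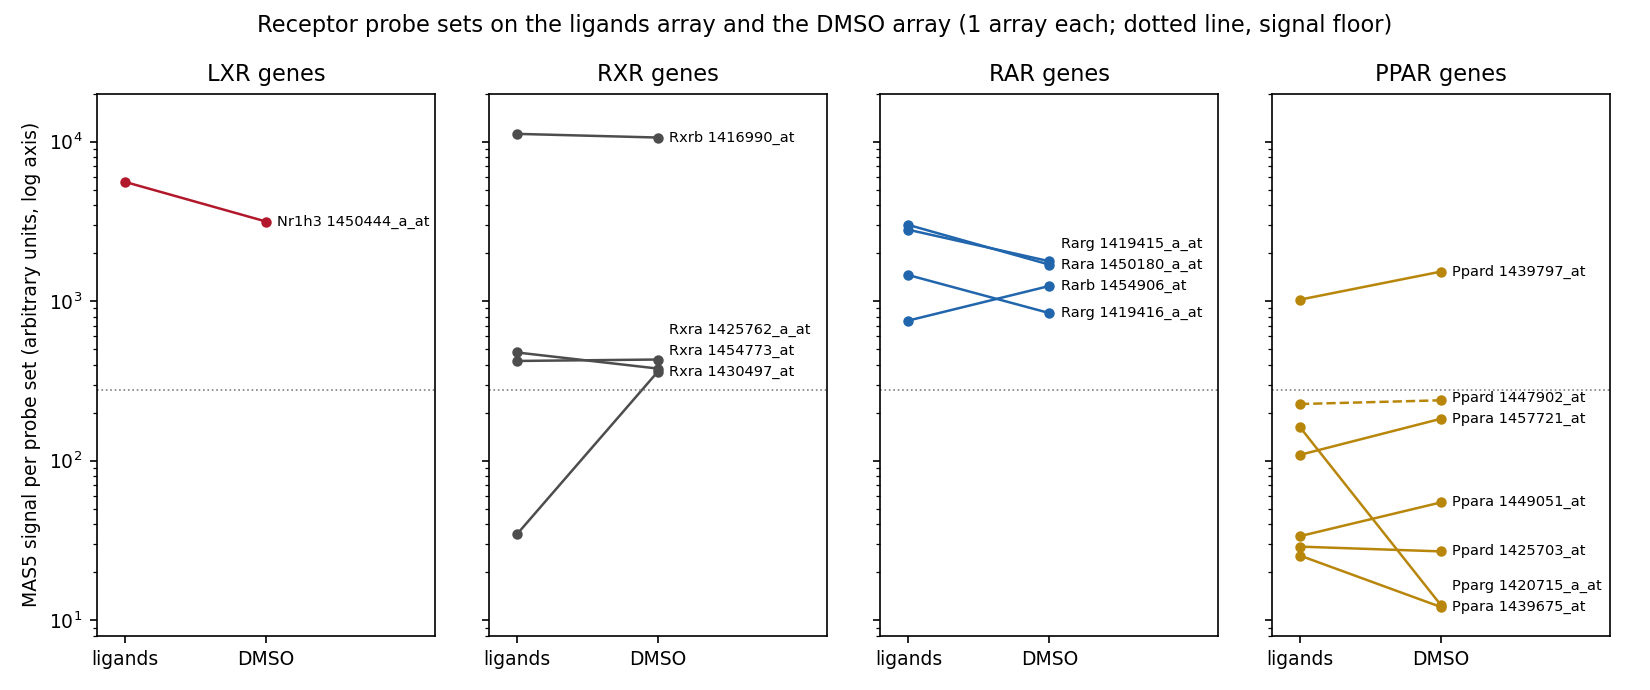
MAS5 signal (arbitrary units, log axis) of each of the 16 receptor probe sets on the ligand array (left point) and the DMSO array (right point), in a panel for each family. The dotted line is the signal floor of 276.4 and the dashed line joins the Ppard probe set that also carries another symbol. The Nr1h3 line, the Rara line and both Rarg lines slope down towards DMSO, those of Rarb and the brightest Ppard probe set slope up, and the Pparg and Ppara points all lie below the floor.

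Nr1h3 encodes LXRα, which the line expresses ectopically and which is a receptor for the LXR agonist GW3965. Its single probe set had a signal of 5577 with the ligands and 3149.9 with DMSO, a log2 ratio of 0.82 or 1.77-fold higher. No replicate error exists, and the spread was taken from genes read by more than 1 probe set: over 4866 genes, the brightest pair disagreed with an SD of 0.28 per probe set on the log2 ratio. This spread leaves out the variation between cultures. Among measured probe sets whose brighter signal lay between 2025 and 6580, as that of Nr1h3 did, 5.5% were at least 1.5-fold higher. The annotation ties the probe set to the mouse transcript NM_013839. The sources used here do not say whether its probes lie in the part of the transcript that was introduced, so transfected and endogenous Nr1h3 RNA cannot be told apart.

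The RXR genes encode the shared partners and the targets of LG268. Rxrb, encoding RXRβ, had a signal of 11169 with the ligands and 10594 with DMSO, a log2 ratio of 0.08. Rxra, encoding RXRα, was read by 3 dim probe sets. The first had 421 with the ligands and 430.3 with DMSO, a log2 ratio of -0.03. The second had 476 with the ligands and 378 with DMSO, a log2 ratio of 0.33. The third had 34.5 with the ligands, below the floor, and 361 with DMSO, and was therefore at least 1.31-fold lower. The first 2 had almost the same mean signal, and the third exceeded the floor by less than 1.5-fold on its brighter array. The size of its ratio was set by the floor. With the floor at the 25th percentile, a signal of 70.2, its log2 ratio was -2.36.

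The RAR genes encode the receptors for retinoic acid, and the 3 paralogues did not share a direction. Rara, encoding RARα, had a signal of 3002 with the ligands and 1693 with DMSO, which was 1.77-fold higher with a log2 ratio of 0.83. Rarg, encoding RARγ, had 2799 with the ligands and 1777 with DMSO in its brighter probe set, 1.58-fold higher. Its second probe set had 1455 with the ligands and 841 with DMSO, 1.73-fold higher. The log2 ratios of the 2 Rarg probe sets, 0.66 and 0.79, differed by 0.13, which is within the probe set SD of 0.28. Both are annotated to the same transcript, NM_011244, so they are repeated readings of 1 gene.

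Rarb, encoding RARβ, went the other way. Its single probe set had a signal of 755 with the ligands and 1243 with DMSO, which was 1.65-fold lower with a log2 ratio of -0.72. Among measured probe sets whose brighter signal lay between 614 and 2025, the range that holds Rarb, 11.5% were past 1.5-fold on the lower side and 11.9% on the higher side. A ratio of this size was therefore commoner at the signal of Rarb than at that of Nr1h3 or Rara. The printed Rarb window is the one with the direct repeat, and the letters there say nothing about which receptor was bound in these cultures. Raising the floor to the 75th percentile, a signal of 2186, left Rarb unmeasured and brought Rara to 0.46 and the brighter Rarg probe set to 0.36, both under 1.5-fold.

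The PPAR genes encode fatty acid receptors. Ppard, encoding PPARδ, was the only member of its family above the floor. Its brightest probe set had 1021 with the ligands and 1529.9 with DMSO, a log2 ratio of -0.58, just short of 1.5-fold lower. Its second probe set was below the floor on both arrays, with 28.9 with the ligands and 27.0 with DMSO. The probe set shared with 1810013A23Rik was also below it, with 226 with the ligands and 239 with DMSO. The direction for Ppard therefore rested on 1 probe set, in the same signal range as Rarb.

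Pparg, encoding PPARγ, the receptor known for its part in macrophage lipid uptake and fat cell formation, had 162 with the ligands and 12.5 with DMSO. Both signals were below the floor, so no fold is given. The 3 probe sets of Ppara, encoding PPARα, a regulator of fatty acid oxidation in liver, had 109, 33.6 and 25.4 with the ligands and 183, 54.7 and 12.1 with DMSO. All were below the floor, and 1 of the 3 was brighter with the ligands than with DMSO. RNA of Pparg and Ppara was thus not detectable above the floor on either array, which does not show that it was absent.

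**Figure D2:**
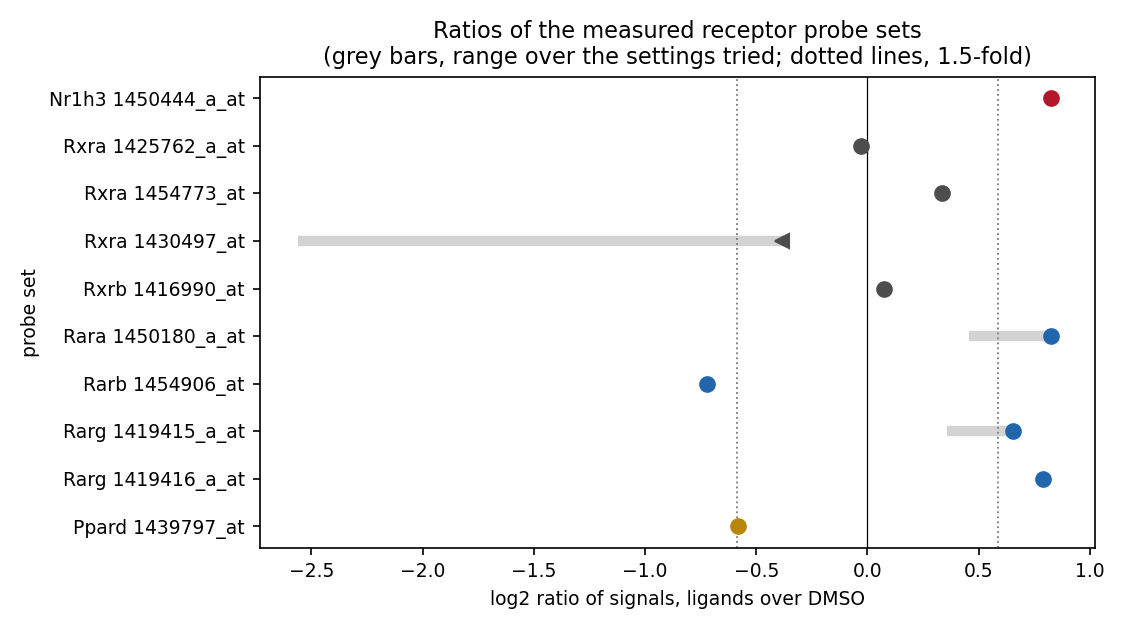
Log2 ratio of signals, ligands over DMSO, for each of the 10 measured receptor probe sets (points, coloured by family). The triangle is the Rxra probe set that was below the floor with the ligands, whose ratio is a bound, grey bars span the settings tried, and dotted lines mark 1.5-fold. Nr1h3 at 0.82 and Rarb at -0.72 stay beyond 1.5-fold in each setting that measured them, while Rara and 1 Rarg probe set cross the line with the highest floor.

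**Figure D3:**
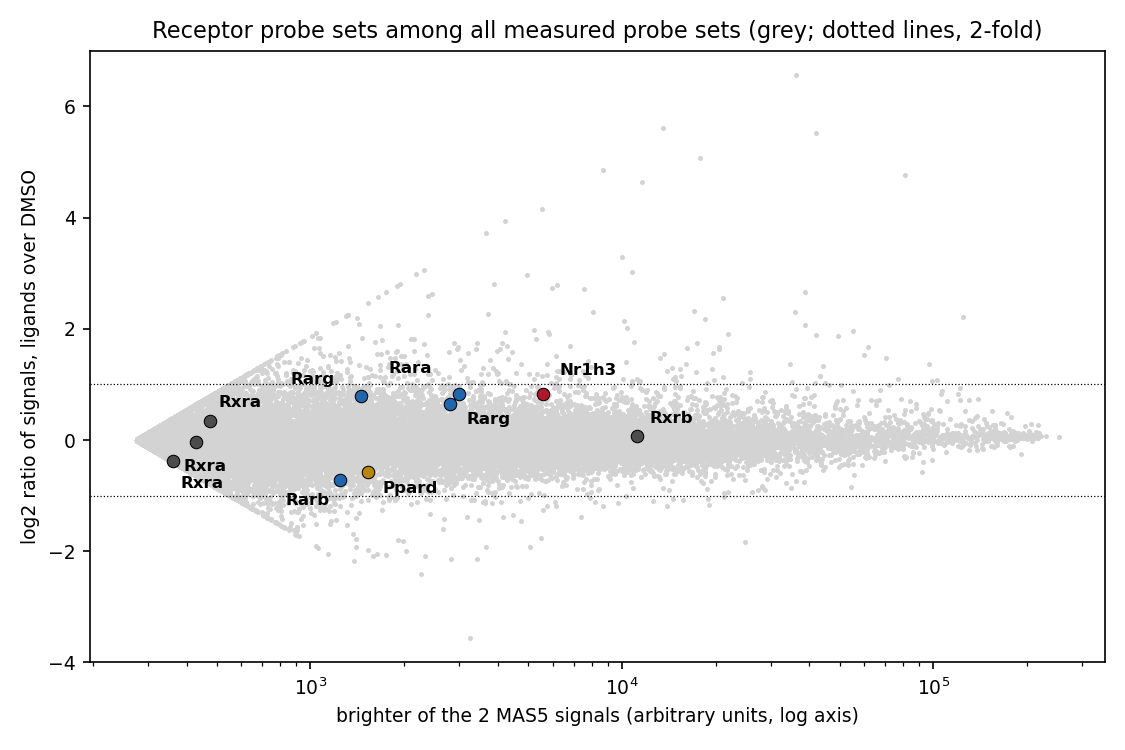
Log2 ratio of signals, ligands over DMSO, against the brighter of the 2 signals (arbitrary units, log axis) for all 24368 measured probe sets (grey) and the 10 receptor probe sets (coloured by family and named). Dotted lines mark 2-fold, and none of the receptor points lies beyond them.

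The other genes around these receptors were described through lists, with each gene represented by its probe set of 1 symbol with the highest mean log2 signal, called the brightest. Over all 11077 measured genes the median log2 ratio was -0.03, 6.36% were past 1.5-fold on the higher side and 4.77% on the lower side, and past 2-fold the shares were 1.67% and 0.776%. Among other RXR partners and RXRγ, 4 of 9 genes were measured and none reached 1.5-fold by the probe set used, although the ratio of Nr1h4 is only a lower bound. Nr4a1, Thra and Nr4a2 had log2 ratios of -0.36, -0.0039 and 0.45, and the probe sets of Nr4a2 ranged from -0.97 to 0.69. Nr1h4, the bile acid receptor, had 396 with the ligands and 61.3 with DMSO, at least 1.43-fold higher. The list's median was 0.22, but -0.12 with each gene's probe sets averaged. It was -0.0039 when both signals of a probe set had to exceed the floor, which leaves out Nr1h4. With the floor at the 25th percentile it was 0.45, and in the other settings that gave it the median stayed positive.

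Coregulators are the proteins that receptors recruit to silence or activate genes. Of 16 listed genes 13 were measured, none was past 1.5-fold by the probe set used, and the median log2 ratio was -0.03. Other probe sets of the corepressor gene Nrip1 ranged from -0.74 to 1.01, and those of the coactivator gene Ncoa2 from -0.83 to 0.22. The lowest was Med1, a Mediator subunit that binds nuclear receptors, at -0.43, and the highest was Ncoa3, a steroid receptor coactivator, at 0.47. Of the 16 partners and coregulators above the floor on both arrays, the ratios closest to that of Nr1h3 were those of Ncoa3, Nr4a2 and Hdac3, the last a histone deacetylase of corepressor complexes with a log2 ratio of 0.38. They were 0.36, 0.38 and 0.44 from the Nr1h3 value, over 2 arrays. Nr1h4 was not among the 16, since its ratio is a bound. Single other probe sets of Ncoa3, Nr4a2 and Nrip1 were closer, at 0.63, 0.69 and 1.01.

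Among enzymes and carriers that supply receptor ligands, 4 of 11 genes were measured and the median log2 ratio was -0.0014. Fabp5, a carrier that delivers fatty acids to PPARδ, was 1.77-fold higher, with 120021 with the ligands and 67812 with DMSO. Its 2 measured probe sets had log2 ratios of 0.82 and 1.11. Cyp27a1 and Ch25h, which make oxysterols, had -0.07 and -0.09, and the retinol dehydrogenase Rdh10 had 0.06 in its brightest probe set and 0.64 in another. The retinaldehyde dehydrogenases Aldh1a1, Aldh1a2 and Aldh1a3, which make retinoic acid, were below the floor on both arrays.

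Genes known to respond to LXRs were the list with the most genes past 2-fold. The RAR-responsive list, with 4 genes measured, had the highest median in the main setting, but this order depended on the setting. When both signals of a probe set had to exceed the floor, the RAR-responsive median was 1.75 and the LXR-responsive one 1.89. They were 1.58 and 1.91 with the floor at the 25th percentile, and 1.90 and 2.05 with each gene's probe sets averaged. In the other settings that gave both medians, the RAR-responsive one stayed higher. Of 13 LXR-responsive genes, all measured, 11 had at least a 2-fold higher signal with the ligands, and the median log2 ratio was 1.91. The furthest apart were the apolipoprotein genes Apoc1 and Apoe and the cholesterol exporter Abca1. Apoc1 had 13584 with the ligands and 207 with DMSO, below the floor, so it was at least 49.2-fold higher. The exceptions at 2-fold by the probe set used, Lpl and Smpdl3a, had log2 ratios of 0.31 and 0.21. The other measured probe set of Lpl had 1.06.

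Of 8 RAR-responsive genes 4 were measured and 3 of these were past 2-fold on the higher side, with a median log2 ratio of 1.99. Tgm2, tissue transglutaminase, had 3897 with the ligands and 558 with DMSO, a log2 ratio of 2.81, and its 5 measured probe sets ranged down to 0.94. Cyp26b1, a hydroxylase that breaks down retinoic acid, had 1301 with the ligands and 179 with DMSO, at least 4.71-fold higher. Dhrs3, which reduces retinaldehyde, had 2892 with the ligands and 861 with DMSO, a log2 ratio of 1.75. The fourth, Hic1, had -0.53. The lower signal of Rarb thus stood beside higher signals of these 3 genes on the same arrays.

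Of 13 PPAR-responsive genes 8 were measured, 3 were past 1.5-fold on the higher side, 2 of them past 2-fold, and none on the lower side. The median log2 ratio was 0.46, or 0.75 without probe sets that can read several transcripts. Plin2, a lipid droplet coat protein, had 70262 with the ligands and 25313 with DMSO, a log2 ratio of 1.47. Cd36, a scavenger receptor that takes up oxidised lipoprotein, had 1.34, with probe sets from 0.28 to 1.75. Cpt1a, which admits fatty acids to mitochondria, had 0.78, and Acadvl and Angptl4 had -0.39 and -0.26. The lower signal of Ppard and the signals of Pparg and Ppara below the floor were measured on the same arrays.

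**Figure D4:**
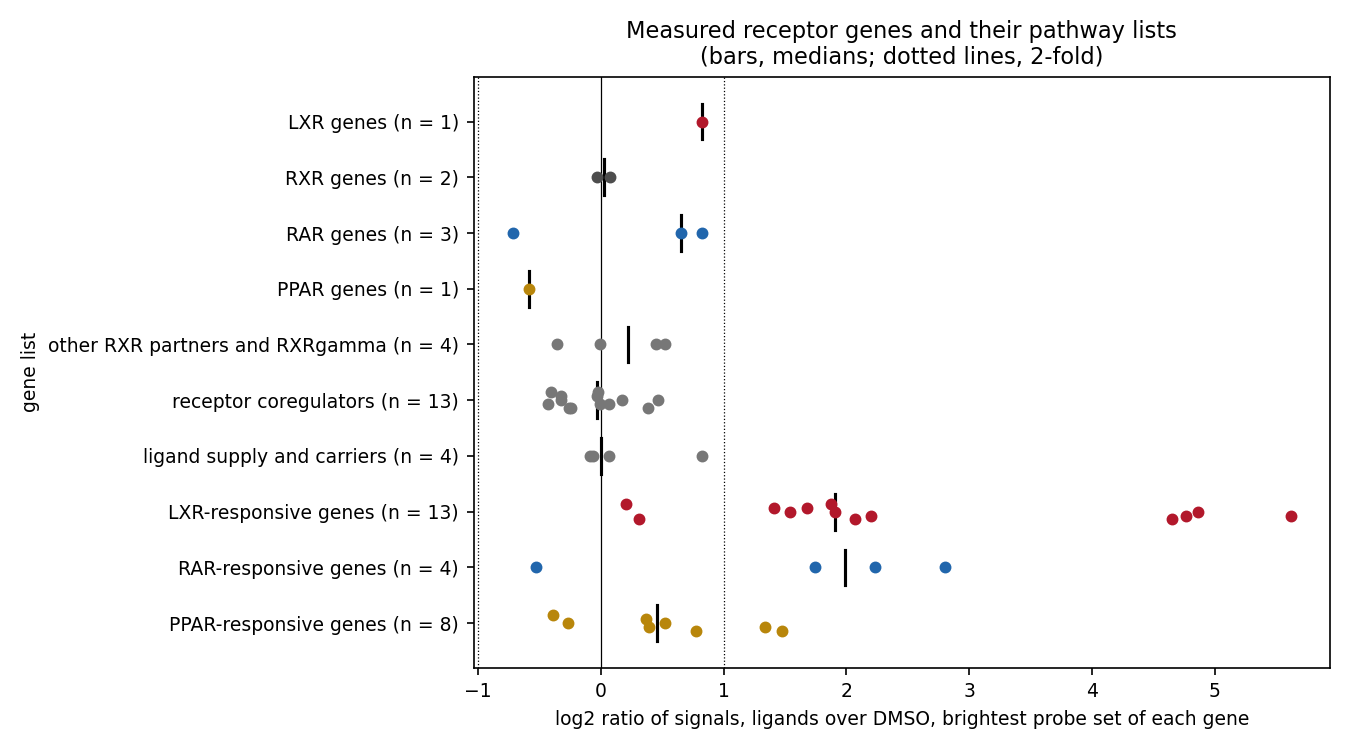
Log2 ratio of signals, ligands over DMSO, of each measured gene (points, brightest probe set) in the 4 receptor families and 6 pathway lists, with list medians (black bars), the number measured, and dotted lines at 2-fold. Ratios of Apoc1, Cyp26b1 and Nr1h4 are lower bounds, because these genes were below the floor with DMSO. The receptor genes lie between -0.72 and 0.83, and the LXR-responsive genes reach 5.62.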

How the data were processed

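The deposited values were intensities, 1 per probe set and array, and per the submitters' processing notes MAS5 produced them. The MAS5 version and a genome build are not given in the sources used here. Both arrays had the same 2% trimmed mean, so the intensities were used as deposited. Such scaling would hide a change in total RNA per cell. MAS5 detection calls were not used here.

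Probe sets were named by the platform annotation, with symbols updated through gene identifiers to GRCm38.p6. The table held 45101 probe sets: 34945 with a single symbol, 932 with more, 9160 unnamed and 64 controls. Log2 ratios were taken above the floor. With 1 array per group no p-value was computed, and the number of arrays limits the precision. All receptor probe sets were named, with up to 3 genes of each pathway list at least 1.5-fold apart and the 3 genes closest to Nr1h3. Other list genes were chosen after their values were seen. Members and lists were chosen with earlier results of these data known. Ratios and 2-fold calls were tested on simulated data, with changes larger than 2-fold put only into bright probe sets. That test does not cover the 1.5-fold calls or changes in dim probe sets. Python 3.11.15, numpy 2.4.6 and pandas 2.3.3 were used.

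The alternatives tried were a lower (25th percentile) and a higher (75th percentile) floor, log2(signal + 32) unfloored, quantile normalization, median centring, rescaling, other choices of probe sets, and the mean over a gene's probe sets.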

Additional observations from a re-analysis of the deposited data

How the results depend on the processing

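No paired analysis was possible because each group had 1 array. Over the settings that measured them, Nr1h3 ranged from 0.82 to 0.85 on the log2 scale, Rarb from -0.73 to -0.69, and Ppard from -0.61 to -0.56. The counts of receptor probe sets depended on the floor. With the floor at the 25th percentile 13 were measured, with 3 past 1.5-fold on the lower side, and past 2-fold 1 higher and 1 lower. Without a floor all 16 counted, with counts of 3, 1 and 1. Pparg then had a log2 ratio of 2.13 from 2 signals below the floor used here. With the floor at the 75th percentile 4 were measured, with 1 at least 1.5-fold higher and 0 lower. Quantile normalization put 2 at least 1.5-fold lower, the second being that of Ppard, whose log2 ratio went from -0.58 to -0.61. The RAR-responsive median was 1.58 with the lower floor, the PPAR-responsive median 0.75 without _s_at and _x_at probe sets, and the median of other RXR partners -0.12 with probe sets averaged. The floor decides these counts by its construction. The PPAR-responsive median of 0.75 was the log2 ratio of another Acaa2 probe set, used once _s_at and _x_at probe sets were left out. What lay behind the other shifts beyond these values was not tested. No receptor probe set past 1.5-fold changed sign in the settings tried. A floor or an added constant cannot reverse the order of 2 signals, and the normalizations moved these ratios little. The unchanged signs are therefore no evidence on reproducibility. Signal over background limits what can be said of Rxra, Pparg and Ppara.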

Other observations

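Vdr, the vitamin D receptor, and Nr1i2, the pregnane X receptor, are further RXR partners that were below the floor on both arrays. Vdr had a signal of 268.3 with the ligands and 53.2 with DMSO, and Nr1i2 had 199.8 with the ligands and 36.8 with DMSO. Thrb, a thyroid hormone receptor, had 80.2 with the ligands and 127.2 with DMSO. Rxrg, which encodes RXRγ, had 40.0 with the ligands and 28.8 with DMSO.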
